A study of Bos taurus with 15 samples.

Results

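The 39 HOX genes of cattle were followed along the digestive tract in single-cell RNA sequencing libraries. The members were all genes listed with a symbol made of HOX, a cluster letter from A to D, and a number. Antisense genes were left out. Of 27270 genes listed in the count tables, 39 met this rule, with 11 in the HOXA cluster, 10 in HOXB, 9 in HOXC, and 9 in HOXD. The data were 15 libraries made from Holstein cattle with the 10x Genomics 3′ chemistry, with 1 library for each tissue and stage. The newborn (NB) libraries were, in the order of the tract, from the stomach chambers (reticulum, omasum, and abomasum), the small intestine (duodenum, jejunum, and ileum), and the large intestine (cecum, colon, and rectum), and also from liver and the parotid salivary gland. The adult (AD) libraries were from duodenum, jejunum, cecum, and colon. The NB samples came from calves of similar weight, and which calf gave which library is not given in the sources used here. The AD samples came from a single lactating cow. Outer muscle layers had been removed. NB samples of the stomach chambers and the intestine were treated with EDTA and trypsin before further enzymes, whereas AD samples were not. The further enzymes were collagenases, hyaluronidase, DNase I, and dispase for the NB stomach chambers, and those of a kit for the NB intestine. AD duodenum and cecum were dissociated with another kit than AD jejunum and colon. Stage, animal, and dissociation therefore cannot be told apart. Between the NB stomach chambers and the NB intestine, tissue and dissociation cannot be told apart either, and the calf may differ between NB libraries.

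HOX genes encode homeodomain transcription factors that lie in 4 chromosomal clusters. Members of different clusters that descend from the same ancestral gene form a paralog group and carry the same number. Genes with low numbers lie at one end of a cluster and are switched on toward the head of the embryo, and genes with high numbers are switched on toward the tail. In the gut, this order is best known for the mesenchyme and separates stomach, small intestine, cecum, colon, and rectum, and cells can keep a HOX code after birth. HOX proteins bind DNA with partners of the PBX and MEIS families, and their genes are set by retinoic acid, by the caudal factors of the CDX family, and by Polycomb and Trithorax chromatin proteins.

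Of 172405 barcodes, 119798 passed the filters, and total UMIs per library were 17707625 to 129458578. Kept barcodes were put into classes by marker gene: *COL1A2* for stroma, *PECAM1* for endothelium, *EPCAM* or *KRT14* for epithelium, and *PTPRC* for leukocytes. A barcode needed at least 2 UMIs of its own marker and at least 75% of all class marker UMIs, and 6.99 to 68.6% of the kept barcodes of a library fell in no class. The level of a gene was the sum of its UMIs over the barcodes of a class, divided by all UMIs of the class and scaled to CPM. A class with under 50 barcodes in a library entered no comparison. Since each tissue and stage had 1 library, there was no replicate error and no test was made. The tissues of a region were not taken as replicates of a condition. The exact Poisson intervals given here cover counting error only. The largest number of barcodes shared by a pair of libraries was 84.

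In *COL1A2* barcodes, the 6 stromal markers summed to 9839 to 38971 CPM over the 9 NB tract libraries, and the 5 endothelial markers summed to 4.32 to 57.8 CPM. The epithelial markers in these barcodes summed to 674 CPM in reticulum and 754 CPM in omasum, against 14.7 to 154 CPM in the other NB tract libraries. The *EPCAM* or *KRT14* barcodes of reticulum and omasum are called keratinocytes here, after *KRT14* and *KRT5*, the keratins of stratified epithelium. *KRT14* was 4273 and 5541 CPM there and did not pass 0.190 CPM from abomasum to rectum. Since *KRT14* was a marker that set this class, its level is in part fixed by the selection. *KRT5*, which was not used to set the class, did not pass 0.0382 CPM from abomasum to rectum. *KRT8* of simple epithelium was 379.9 to 1745 CPM in those libraries. The number of *COL1A2* barcodes was 115 in reticulum, 231 in omasum, 877 in abomasum, 565 in duodenum, 2682 in jejunum, 387 in ileum, then 1137 in cecum, 202 in colon, and 1969 in rectum. For the *EPCAM* or *KRT14* barcodes, these numbers were 5881, 8962, 3680, 2814, 825, 390, 242, 669, and 580, in the same order. Of the 4 classes, *PTPRC* barcodes were the most numerous in each AD library, and *COL1A2* barcodes reached 50 in AD colon alone of the AD libraries, with 161.

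Stroma, endothelium, and the epithelium outside abomasum and duodenum carried HOX transcripts, and leukocytes carried few. Summed over the 39 genes, the level in *COL1A2* barcodes of the 9 NB tract libraries lay between 285 CPM in duodenum and 646 CPM in colon. The sum in *PECAM1* barcodes of these libraries lay between 224 CPM in reticulum and 325 CPM in ileum. In *EPCAM* or *KRT14* barcodes, the range was far wider: 153 CPM (95% interval, 149.7 to 156) in reticulum, 145 CPM in omasum, 2.21 CPM (95% interval, 1.83 to 2.66) in abomasum, 5.58 CPM in duodenum, 97.2 CPM in jejunum, 761 CPM in ileum, 1194 CPM (95% interval, 1158 to 1230.5) in cecum, 736 CPM in colon, and 937 CPM in rectum. The epithelium of abomasum and duodenum thus lay far below that of omasum before it and jejunum after it. In *PTPRC* barcodes, the sum was 7.34 to 21.6 CPM over the 7 NB tract libraries with at least 50 such barcodes. The epithelium of abomasum and duodenum lay below this range.

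The epithelium is described in 5 stretches of the tract, set after the values were seen. The first was the forestomach, whose keratinocytes carried almost only HOXC genes. *HOXC6* was 53.1 CPM (95% interval, 51.4 to 54.9) in reticulum and 57.7 CPM (95% interval, 56.2 to 59.3) in omasum, *HOXC5* was 41.1 and 48.8 CPM, and *HOXC4* was 34.9 and 32.7 CPM. The exception between both chambers was *HOXC8*, the next gene of the cluster, with 22.0 CPM (95% interval, 20.9 to 23.2) in reticulum and 4.74 CPM (95% interval, 4.30 to 5.21) in omasum. It was the only one of 4 HOX genes tested that was called between these chambers (at least 2-fold on the scale of log2(CPM + 1), with intervals that did not overlap, for genes with at least 5 CPM in at least 1 of the sums compared), against 4.01% of all genes tested. A gene that passed this filter in 1 of 2 sums alone was high there by the filter, so that a one-sided count of calls is a description. *HOXC9* followed at 0.810 CPM in reticulum and 0.0222 CPM in omasum. The HOXA cluster summed to 0.0935 and 0.222 CPM and the HOXB cluster to 0.234 and 0.245 CPM in the same barcodes.

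The second stretch was the glandular stomach and the first part of the intestine. No HOX gene reached 5 CPM in the epithelium of abomasum or duodenum, although 3680 and 2814 barcodes were summed. The highest values there were *HOXC4* at 0.840 CPM in abomasum and *HOXC9* at 0.969 CPM in duodenum. *HOXC5* was 0.0955 and 0.0786 CPM and *HOXC6* 0.0382 and 0.655 CPM in abomasum and duodenum.

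The third stretch was the jejunum, where HOXC genes gave 83.3% of HOX UMIs, as against 99.5% in omasum, but with another member in front. *HOXC9* was 42.2 CPM (95% interval, 38.5 to 46.3), *HOXC6* 19.7 CPM (95% interval, 17.2 to 22.6), and *HOXC8* 14.6 CPM (95% interval, 12.4 to 17.1), with *HOXA5* at 5.03 CPM, *HOXA3* at 4.30 CPM, and the HOXB cluster at 1.74 CPM in sum. *HOXC5* at 1.01 CPM and *HOXC4* at 1.83 CPM, which were high in the keratinocytes, were low here. The fourth stretch was ileum and cecum. From jejunum to ileum, 16 of 19 HOX genes tested were called, all of them higher in ileum, against 12.3% of all genes tested in either direction. All 19 reached 5 CPM in ileum and 4 of them in jejunum, so that the others entered through ileum alone. Of these 4, *HOXA5* was called, at 5.03 CPM in jejunum and 58.2 CPM in ileum, and *HOXC6*, *HOXC8*, and *HOXC9* were not. *HOXA9* was 0.274 CPM in jejunum and 172 CPM (95% interval, 161 to 184) in ileum. *HOXB7* was 0.366 and 92.6 CPM, *HOXB9* was listed at 0 and 69.0 CPM, and *HOXA6* was 0.0914 and 64.1 CPM. The ileum and cecum epithelium therefore held transcripts of all 4 clusters. Between ileum and cecum, within this stretch, 5 of 19 HOX genes tested were called, against 23% of all genes tested.

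The fifth stretch was colon and rectum, where HOXC genes were at or near 0 in the epithelium. *HOXC6* was 19.7 CPM in jejunum, 34.6 in ileum, 79.6 in cecum, then 0.221 in colon, and 0 in rectum. *HOXC8* was 50.0 CPM and *HOXC9* 51.4 CPM in cecum, and both were at 0 in colon and rectum, where a count of 0 allowed up to 0.332 and 0.388 CPM. Between cecum and colon, 16 of 24 HOX genes tested were called, 7 higher and 9 lower in colon, against 13.5% of all genes tested. Of the 10 that reached 5 CPM in both libraries, 1 was called higher (*HOXD4*) and 1 lower (*HOXB8*). The 9 that were lower were *HOXC4*, *HOXC6*, *HOXC8*, and *HOXC9* and the neighbors *HOXB3*, *HOXB4*, *HOXB5*, *HOXB7*, and *HOXB8*. *HOXB7* was 90.5 CPM (95% interval, 80.8 to 101) in cecum, 1.77 CPM (95% interval, 1.01 to 2.87) in colon, and 19.4 CPM (95% interval, 16.4 to 22.8) in rectum. *HOXB9*, the neighbor of *HOXB8*, was not called at this step, with 69.0 CPM in ileum, 225 in cecum, then 179 in colon, and 377 in rectum. The 7 that were higher in colon were *HOXA11*, *HOXA13*, *HOXD3*, *HOXD4*, *HOXD9*, *HOXD10*, and *HOXD11*. *HOXA11* was 0 CPM in ileum, 2.30 in cecum, then 23.9 in colon, and 3.49 in rectum, highest in colon. *HOXD11* was at 0 in ileum and cecum, 5.31 CPM (95% interval, 3.91 to 7.03) in colon, and 69.1 CPM (95% interval, 63.3 to 75.2) in rectum, and *HOXD10* was 0.287 CPM in cecum, 7.52 in colon, and 35.7 in rectum. Of the 9 NB tract libraries, rectal epithelium thus had the highest *HOXB9*, *HOXD10*, and *HOXD11*, and colonic epithelium the highest *HOXA11* and *HOXA10*, the latter at 46.5 CPM. Between colon and rectum, within this stretch, 9 of 17 HOX genes tested were called, 5 higher and 4 lower in rectum, against 12.6%. Of the 13 that reached 5 CPM in both libraries, 4 were called higher (*HOXB8*, *HOXB9*, *HOXD10*, and *HOXD11*) and 2 lower (*HOXA3* and *HOXD4*).

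**Figure D1:**
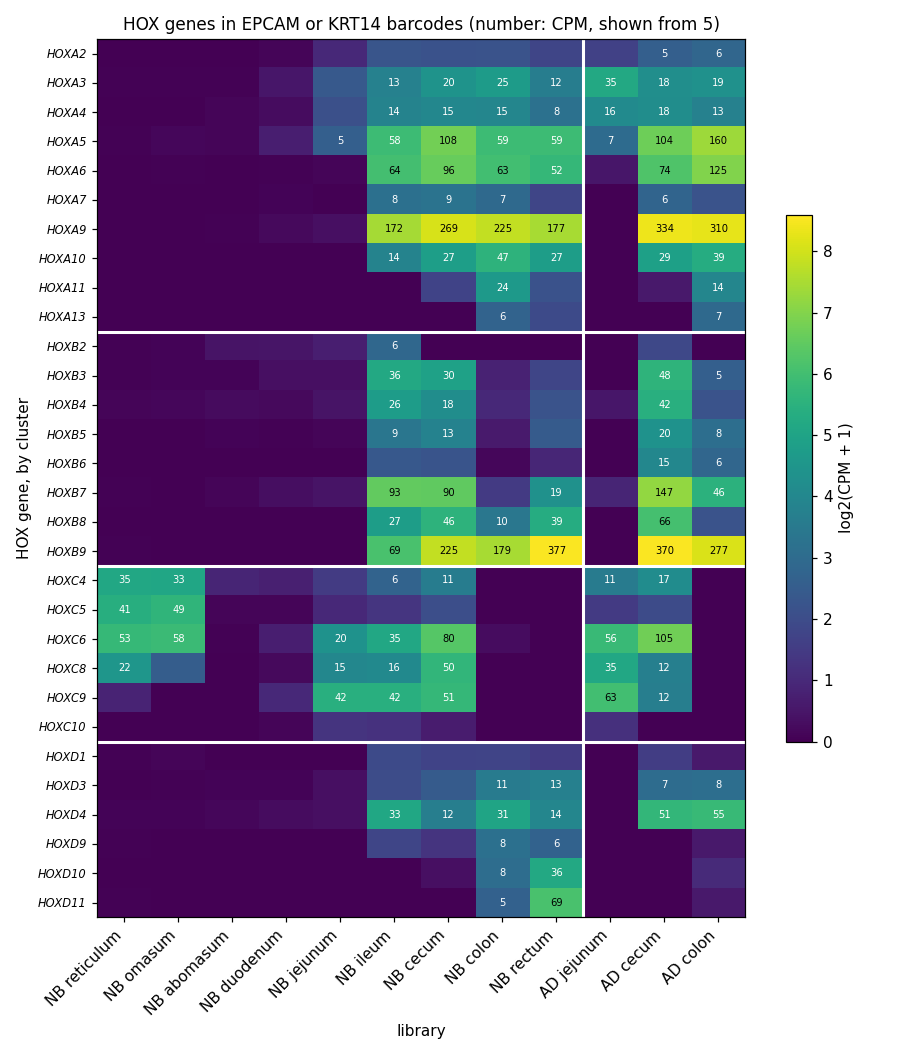
Level of the 30 HOX genes that met the rule for named genes (rows, by cluster) in the EPCAM or KRT14 barcodes of each library (columns, NB from reticulum to rectum and then AD), as color on the scale of log2(CPM + 1), with the CPM written in cells from 5 CPM. Keratinocytes of reticulum and omasum held HOXC genes, abomasum and duodenum held nearly none, and the HOXC rows ended between cecum and colon.

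Over the whole intestine, the NB large intestine (cecum, colon, and rectum) was set against the NB small intestine (duodenum, jejunum, and ileum). A gene was called when every library of one region lay above every library of the other and the ratio of the mean CPM was at least 2-fold, and log2 differences are given with 1 CPM added to both means. In *EPCAM* or *KRT14* barcodes, 7 of 25 HOX genes tested were called higher in the large intestine, against 5.62% of 9460 genes, and 1 was called lower, against 4.79%. Of the 18 that reached 5 CPM in both regions, 4 were called higher (*HOXA5*, *HOXA9*, *HOXA10*, and *HOXB9*) and none lower. The other calls rest on genes that passed the filter in 1 region alone, where they had to be high, so that the counts are descriptions. The 7 were *HOXA5*, *HOXA9*, *HOXA10*, *HOXA11*, *HOXB9*, *HOXD3*, and *HOXD10*. The mean of *HOXB9* was 260.0 CPM in the large and 23.0 CPM in the small intestine (log2 difference, 3.44), and that of *HOXA9* was 224 and 57.6 CPM (log2 difference, 1.94). The gene called lower was *HOXB2*, which was 0.393 CPM in duodenum, 0.640 in jejunum, and 6.28 in ileum and at 0 in cecum, colon, and rectum. Without the ileum, 18 HOX genes were called higher and none lower, and without the cecum 5 were called lower. Shares of all genes called are not given for these smaller sets, where fewer libraries have to lie apart. These counts therefore describe the dependence on 1 library alone.

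In stroma, HOXA genes differed along the tract, with a break around the ileum. *HOXA5*, which is active in foregut and midgut mesenchyme, was 68.1 CPM in reticulum, 73.4 in omasum, 84.2 in abomasum, then 83.2 in duodenum, 85.1 in jejunum, 11.1 in ileum, 55.0 in cecum, then 45.7 in colon, and 82.99 in rectum in *COL1A2* barcodes. *HOXA3* was 23.8 to 39.3 CPM from reticulum to jejunum, and 7.59 CPM in ileum, 6.42 in cecum, then 3.63 in colon, and 14.5 in rectum. The HOXA genes of groups 9 to 11 were at or near 0 from reticulum to jejunum. *HOXA9* was then called higher in ileum than jejunum, and *HOXA10* and *HOXA11* were called higher in cecum than ileum. *HOXA9* was at 0 in reticulum, omasum, and duodenum, 0.285 CPM in abomasum, 0.438 CPM in jejunum, 32.4 CPM (95% interval, 24.9 to 41.4) in ileum, 105 CPM (95% interval, 98.1 to 112) in cecum, 118 CPM (95% interval, 100.1 to 137) in colon, and 88.7 CPM (95% interval, 83.6 to 94.2) in rectum.

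*HOXA10* did not pass 0.0875 CPM up to jejunum and was 2.53 CPM in ileum and 66.5 CPM in cecum, 104 in colon, and 60.1 in rectum. In the small stromal classes of reticulum and omasum, a count of 0 allowed up to 10.2 and 6.48 CPM of any gene. *HOXA11* had no UMI in stroma from reticulum to ileum, where a count of 0 allowed up to 0.263 CPM in jejunum and 1.52 CPM in ileum, and was 57.0 CPM in cecum, 102 in colon, and 59.0 in rectum. *HOXA6* was 3.41 CPM in reticulum, 19.4 in omasum, 8.54 in abomasum, then 0.452 in duodenum, 1.14 in jejunum, 10.1 in ileum, 45.7 in cecum, then 52.9 in colon, and 68.9 in rectum, so that it was low in duodenum and jejunum and high in the large intestine. Ileal stroma differed from both regions: *HOXA5* was 11.1 CPM (95% interval, 6.98 to 16.9) there, below every other NB tract library, and *HOXA10* and *HOXA11* lay below every large intestine library.

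**Figure D2:**
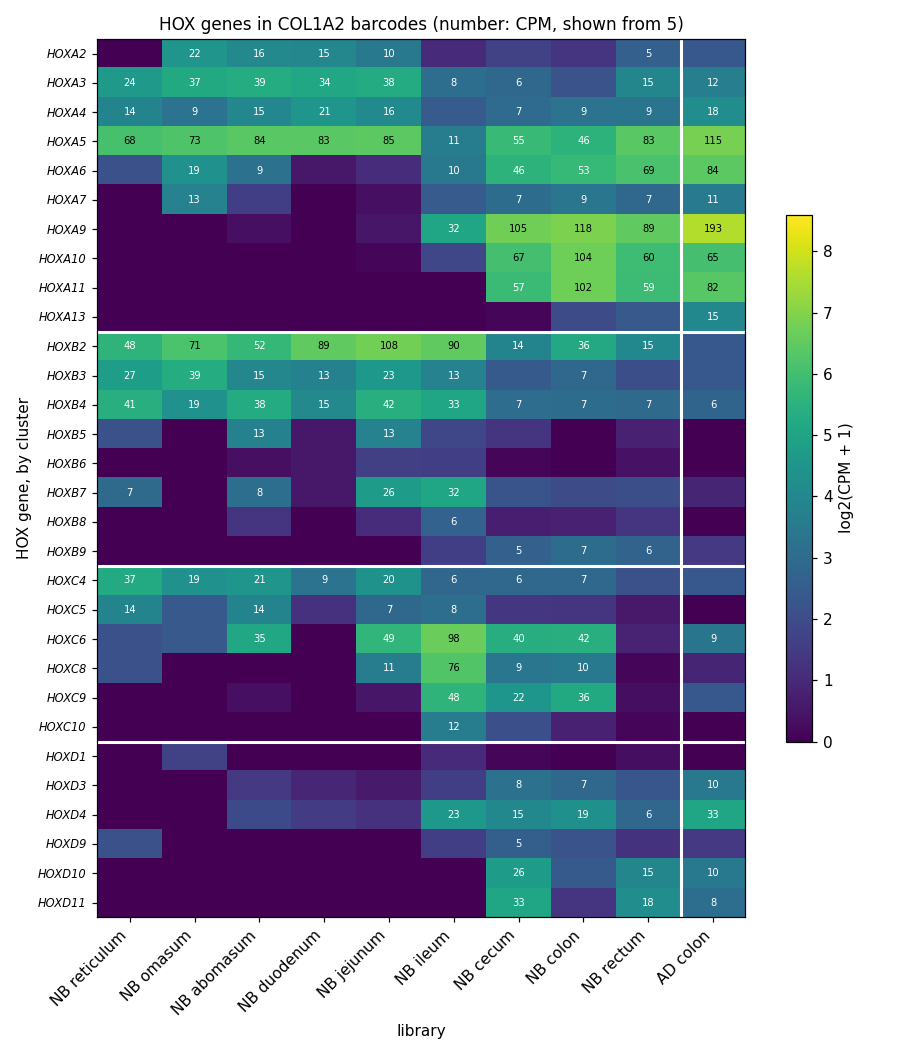
Level of the 30 HOX genes that met the rule for named genes (rows, by cluster) in the COL1A2 barcodes of the 9 NB tract libraries and AD colon (columns), as color on the scale of log2(CPM + 1), with the CPM written in cells from 5 CPM. HOXA9, HOXA10, and HOXA11 were filled from cecum to rectum, HOXB2 to HOXB4 were higher up to ileum than after it, and HOXC6 to HOXC10 were highest in ileum.

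*HOXB2*, *HOXB3*, and *HOXB4* of stroma were lower in the large than the small intestine. *HOXB2*, whose paralog group marks the hindbrain in the embryo, was 47.7 CPM in reticulum, 71.3 in omasum, 52.1 in abomasum, then 88.6 in duodenum, 108 in jejunum, 90.1 in ileum, 13.7 in cecum, then 35.5 in colon, and 15.3 in rectum. *HOXB4* was 15.4 to 41.8 CPM from reticulum to ileum and 7.42 CPM in cecum, 7.25 in colon, and 6.90 in rectum in the large intestine. *HOXB7* was 7.68 CPM in abomasum, 0.452 in duodenum, 26.1 in jejunum, then 32.4 in ileum, 3.65 in cecum, then 2.90 in colon, and 3.16 in rectum, highest in jejunum and ileum. *HOXB9* did not pass 7.25 CPM in any stroma of NB tissue, whereas it reached 377 CPM in rectal epithelium.

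Within the HOXC and HOXD clusters, single tissues stood out. *HOXC6* was 3.41 CPM in reticulum, 4.32 in omasum, 34.7 in abomasum, then 0 in duodenum, 49.0 in jejunum, 98.2 in ileum, 40.4 in cecum, then 42.1 in colon, and 0.811 in rectum, with no UMI in duodenum, where a count of 0 allowed up to 1.36 CPM. *HOXC8* was 76.4 CPM (95% interval, 64.7 to 89.6) in ileum against 11.4 CPM in jejunum and 9.41 CPM in cecum. *HOXC9* was 0.438 CPM in jejunum and 47.6 CPM in ileum, 21.8 in cecum, then 36.3 in colon, and 0.243 in rectum. *HOXC10* was 11.6 CPM (95% interval, 7.38 to 17.5) in ileum, 3.32 CPM in cecum, 0.725 CPM in colon, and 0.0811 CPM in rectum. Ileal stroma thus had the highest levels of *HOXC6*, *HOXC8*, *HOXC9*, and *HOXC10* of the 9 NB tract libraries. *HOXD10* and *HOXD11* were at 0 from reticulum to ileum, with the limits of a count of 0 given above for these libraries. *HOXD11* was 33.4 CPM (95% interval, 29.8 to 37.4) in cecum, 1.45 CPM (95% interval, 0.176 to 5.24) in colon, and 17.6 CPM (95% interval, 15.3 to 20.1) in rectum, and *HOXD10* was 26.2 CPM in cecum, 4.35 in colon, and 14.6 in rectum, so that both were lower in colon than in the tissue before and after it.

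In *COL1A2* barcodes, 9 of 28 HOX genes tested were called higher in the NB large than small intestine, against 2.71% of 10732 genes, and 3 were called lower, against 4.28%. Of the 14 that reached 5 CPM in both regions, 2 were called higher (*HOXA6* and *HOXA9*) and 3 lower (*HOXB2*, *HOXB3*, and *HOXB4*). The other 7 passed the filter in the large intestine alone. The 9 were *HOXA6*, *HOXA7*, *HOXA9*, *HOXA10*, *HOXA11*, *HOXB9*, *HOXD3*, *HOXD10*, and *HOXD11*. The mean of *HOXA10* was 76.8 CPM in the large and 0.873 CPM in the small intestine (log2 difference, 5.38), and that of *HOXA6* was 55.8 and 3.90 CPM (log2 difference, 3.54). Those called lower were *HOXB2* (log2 difference, -2.10), *HOXB4* (-1.92), and *HOXB3* (-1.60). The number called lower was 8 without the duodenum and 7 without the ileum, and shares of all genes are not given for these smaller sets either. *HOXA9*, *HOXA10*, *HOXA11*, *HOXB9*, *HOXD3*, and *HOXD10* were called in both epithelium and stroma. The stromal call of *HOXB9* rests on low levels, in colon 7.25 CPM against 179 CPM in epithelium. The part of epithelial RNA in the stromal value was not tested.

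Step by step, the largest share of HOX genes called in stroma was between ileum and cecum. There, 18 of 25 HOX genes tested were called, 8 higher and 10 lower in cecum, against 11.5% of all genes tested. From jejunum to ileum, 13 of 19 were called, against 5.97%. From abomasum to duodenum, 7 of 13 were called, all lower in duodenum, against 14%, and from duodenum to jejunum 7 of 13 were called, all higher in jejunum, against 4.87%. *HOXB4*, *HOXB5*, *HOXB7*, *HOXC4*, *HOXC5*, and *HOXC6* were in both of these lists, lower in duodenal stroma than in abomasum and jejunum. In stroma, 13 HOX genes reached 5 CPM in abomasum, 8 in duodenum, and 13 in jejunum, so that *HOXB5*, *HOXB7*, *HOXC5*, and *HOXC6* entered both steps through the neighbors of the duodenum. From cecum to colon 3 of 22 were called, against 10.4%, and from colon to rectum 8 of 22, against 9.82%. From reticulum to omasum none of 12 was called, against 2.3%, with 115 and 231 barcodes, and from omasum to abomasum 4 of 14, against 13.3%. Of the HOX genes that reached 5 CPM in both stromal libraries, 8 of 11 were called at ileum to cecum and 4 of 10 at jejunum to ileum. At abomasum to duodenum 2 of 8 were called (*HOXB4* and *HOXC4*), and the same 2 of 8 at duodenum to jejunum. At cecum to colon 1 of 16 was called, at colon to rectum 2 of 11, and at omasum to abomasum 1 of 9. The shares of all genes above belong to the wider filter and are not given for genes that reached 5 CPM in both libraries. Neighboring steps share a library.

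When the 6 NB intestinal libraries were set against the 3 NB stomach chambers in *COL1A2* barcodes, 1 of 28 HOX genes tested was called higher in the intestine, against 5.01% of all genes tested, and none was called lower, against 1.81%. The gene was *HOXD8*, outside the rule for named genes and chosen after its values were seen, with means of 2.07 CPM and 0, and a count of 0 allowed up to 10.2 CPM in reticulum. *HOXA3* of duodenum and jejunum lay within its range over the stomach chambers. Of the 11 regional transcription factors and 22 regulators tested here, *NKX2-3*, *FOXF1*, and *TCF21* and the chromatin genes *MEN1* and *EZH2* were called higher in the intestine and *BARX1* lower. *BARX1*, a stomach mesenchyme factor, was 202 CPM in the stomach chambers and 2.14 CPM in the intestine.

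Epithelium and stroma of the same library did not carry the same HOX genes. In colon, *HOXC6* was 42.1 CPM (95% interval, 31.9 to 54.4) in *COL1A2* barcodes and 0.221 CPM (95% interval, 0.0268 to 0.799) in *EPCAM* or *KRT14* barcodes, and *HOXC9* was 36.3 CPM (95% interval, 26.9 to 47.8) in the former and at 0 in the latter. In ileum, *HOXA9* was 32.4 CPM in stroma and 172 CPM in epithelium, and *HOXA6* was 10.1 and 64.1 CPM. In cecum, *HOXA11* was 57.0 CPM (95% interval, 52.2 to 62.2) in stroma and 2.30 CPM (95% interval, 0.992 to 4.53) in epithelium, and *HOXB9* was 5.20 and 225 CPM. In rectum, *HOXB9* was 5.60 and 377 CPM, and *HOXD11* was 17.6 and 69.1 CPM.

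Many HOX genes had passed the filter in epithelium or in stroma alone, where they had to be high, so that the counts of calls are descriptions. In abomasum and duodenum, the genes tested had passed through stroma alone, and no count of calls is given. In reticulum and omasum, all genes called lower in keratinocytes had passed through stroma alone. In reticulum, *HOXC5*, *HOXC6*, and *HOXC8* were called higher in keratinocytes, 3 of 11, against 10.2% of all genes tested, and *HOXC5* was the 1 of them that reached 5 CPM in both classes. In omasum, *HOXC5* and *HOXC6* were called higher, 2 of 12, against 11.3%, both through keratinocytes alone. In jejunum, *HOXC9*, at 42.2 CPM in epithelium and 0.438 CPM in stroma, was the 1 gene of 14 called higher in epithelium, against 13.1%. In the same library 12 were called lower, against 37.4%. Of the 3 that reached 5 CPM in both classes, none was called higher and 2 lower (*HOXA5* and *HOXC6*). In ileum, 10 of 21 were called higher in epithelium, against 9.93%, and 5 lower, against 33.6%. Of the 14 that reached 5 CPM in both classes, 6 were called higher (*HOXA5*, *HOXA6*, *HOXA9*, *HOXB3*, *HOXB7*, and *HOXB8*) and 3 lower (*HOXB2*, *HOXC6*, and *HOXC8*). In cecum, 11 of 24 were called higher, against 13.3%, and 6 lower, against 33.1%. Of the 14 that reached 5 CPM in both classes, 7 were called higher (*HOXA3*, *HOXA6*, *HOXA9*, *HOXB4*, *HOXB9*, *HOXC8*, and *HOXC9*) and 1 lower (*HOXA10*).

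In colon, 3 of 24 were called higher in epithelium (*HOXA3*, *HOXB8*, and *HOXB9*), against 10.9%, and 9 lower, against 32.9%. Of the 10 that reached 5 CPM in both classes, 1 was called higher (*HOXB9*) and 2 lower (*HOXA10* and *HOXA11*). In rectum, 8 of 19 were called higher, against 12.4%, and 4 lower, against 32.7%. Of the 10 that reached 5 CPM in both classes, 4 were called higher (*HOXB9*, *HOXD4*, *HOXD10*, and *HOXD11*) and 1 lower (*HOXA10*). In AD colon, 4 of 21 were called higher, against 14%, and 4 lower, against 22.4%. Of the 10 that reached 5 CPM in both classes, none was called higher and 1 lower (*HOXA11*). *HOXB9* was called higher in epithelium in ileum, cecum, colon, and rectum, and *HOXA10* and *HOXA11* were called lower in epithelium in NB cecum, colon, and rectum. In ileum, *HOXA10* was called higher in epithelium, at 13.5 CPM against 2.53 CPM in stroma, and in AD colon it was not called. In *COL1A2* barcodes of reticulum, *HOXC4* was 37.5 CPM (95% interval, 18.7 to 67.0), close to the 34.9 CPM of the keratinocytes, while the keratinocyte and other epithelial markers in the stromal barcodes summed to 674 CPM against 11094 CPM in the keratinocytes. The part of keratinocyte RNA in that value was not tested.

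**Figure D3:**
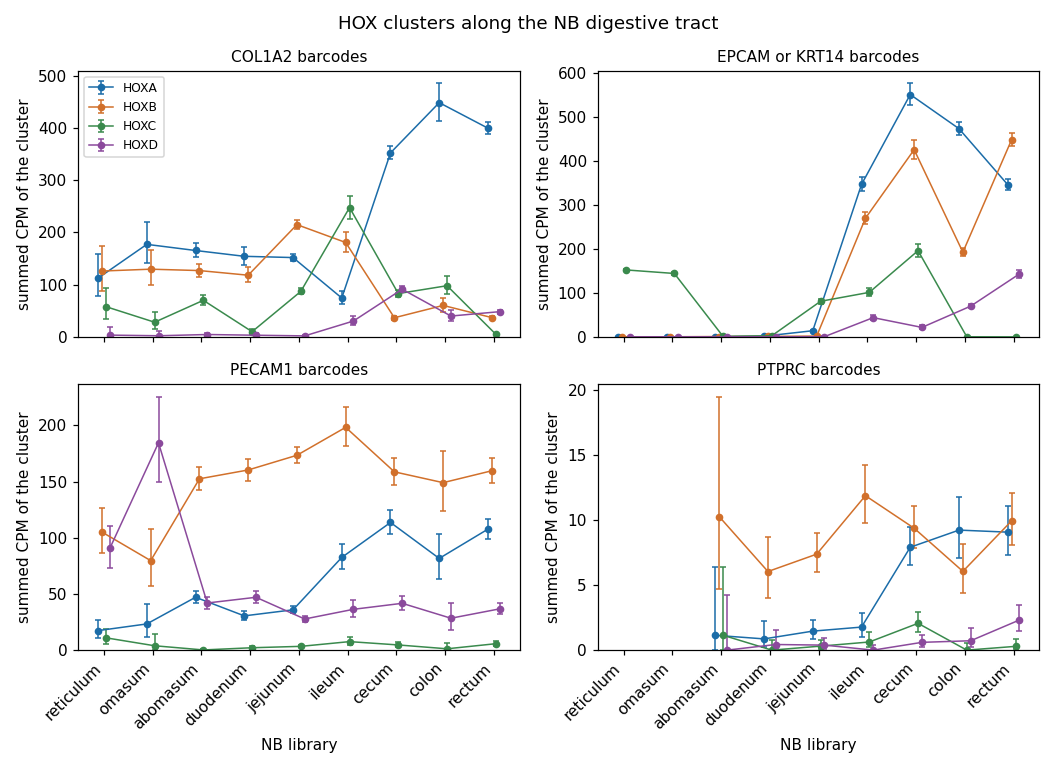
Summed CPM of each HOX cluster (color) by NB tract library in COL1A2, EPCAM or KRT14, PECAM1, and PTPRC barcodes, with exact 95% Poisson intervals as bars and a separate vertical scale in each panel. PTPRC barcodes of reticulum and omasum, with under 50 each, were left out. In stroma, the HOXA sum was highest from cecum to rectum and the HOXC sum in ileum, and in epithelium all 4 sums were near 0 in abomasum and duodenum.

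The cluster sums of stroma peaked in different tissues. HOXA was 112 to 177 CPM from reticulum to jejunum, 74.4 CPM in ileum, and 352, 448, and 399 CPM in cecum, colon, and rectum. HOXB was 215 CPM in jejunum and 36.9 CPM in rectum. HOXC was 247 CPM in ileum and 5.11 CPM in rectum. HOXD was highest in cecum at 91.2 CPM. In epithelium, HOXC was 152 CPM in reticulum, 196 CPM in cecum, and 0.221 CPM in colon, and HOXD was highest in rectum at 143 CPM.

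The share of HOX UMIs from paralog groups 9 to 13 gave 1 number for the posterior weight of a class. In *COL1A2* barcodes, it was at most 1.14% from reticulum to jejunum, with an upper 95% limit of 6.17% in reticulum. It was 18.4% (95% interval, 16.1 to 20.9%) in ileum, 57.5% (95% interval, 56.1 to 58.8%) in cecum, 58.9% (95% interval, 55.6 to 62.2%) in colon, and 52.1% (95% interval, 50.8 to 53.3%) in rectum. The intervals of cecum and colon overlapped, and rectum lay below both. In *EPCAM* or *KRT14* barcodes, it was 45.2% (95% interval, 42.2 to 48.3%) in jejunum, 39.5% in ileum, then 48.4% in cecum, 67.9% in colon, and 74.9% (95% interval, 73.9 to 75.9%) in rectum, and *HOXC9* gave most of these UMIs in jejunum. In *PECAM1* barcodes, it did not pass 17.8%. The 3 large intestine libraries lay above every other NB tract library in stroma. In AD colon stroma, it was 54.5% (95% interval, 51.0 to 57.9%).

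**Figure D4:**
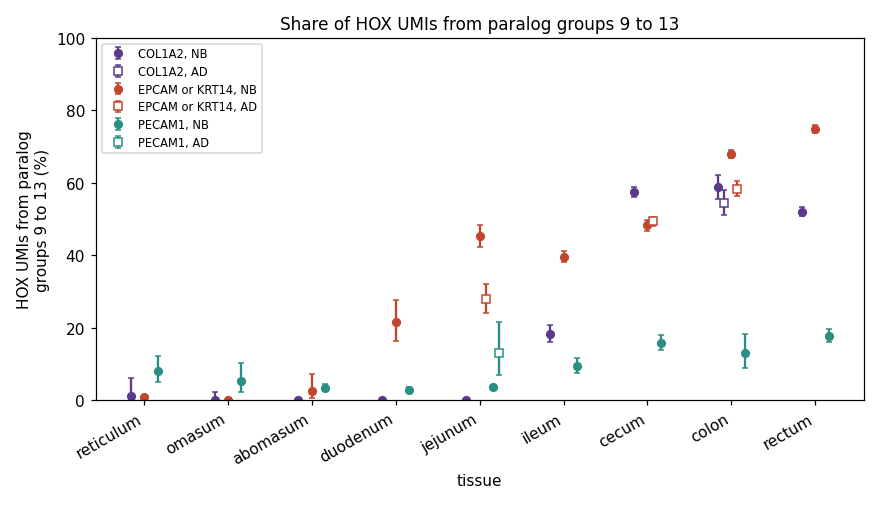
Share of HOX UMIs (vertical axis, %) that came from paralog groups 9 to 13, by tissue, in COL1A2, EPCAM or KRT14, and PECAM1 barcodes of NB (filled) and AD (open) libraries with at least 50 such barcodes, with exact 95% binomial intervals. Stromal NB values did not pass 1.14% up to jejunum and were at least 52.1% from cecum on, and NB endothelial values did not pass 17.8%.

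The members of the highest paralog groups were found near the end of the tract, in few barcodes. *HOXA13*, the marker of hindgut and cloaca in the embryo, had 87 UMIs in rectum, 51 of its 84 positive barcodes being *COL1A2* barcodes and 21 *EPCAM* or *KRT14* barcodes. In colon it had 57 UMIs, with 45 of 50 positive barcodes in the epithelium. Cecum had 2 UMIs of it, and no tract library before cecum had any. UMIs in kept barcodes numbered 50551311 in rectum and 30478426 in colon, so that counts in these libraries are not levels. *HOXD13* had 67 UMIs in rectum, in 35 *COL1A2* and 22 *EPCAM* or *KRT14* barcodes, and none in colon, and *HOXB13* had 26 UMIs in rectum and none in NB colon. AD colon had 41 UMIs of *HOXA13*, 6 of *HOXB13*, and 1 of *HOXD13*. *HOXC13*, which is known for setting hair keratin genes, was counted mostly in reticulum. Of its 20 UMIs, 17 were there, all in keratinocyte barcodes, with *HOXC12* at 2 UMIs in the same class. In those barcodes *HOXC13* was 0.265 CPM, below the level that a count of 0 allowed in colonic and rectal epithelium. The same level could therefore have gone uncounted in that epithelium. *HOXC11* had 1 UMI, in colon. *HOXB1* and *HOXD12* had no UMI in any kept barcode of the 15 libraries.

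In *PECAM1* barcodes, *HOXB2* was 47.5 CPM in reticulum, 44.7 in omasum, 59.2 in abomasum, then 66.3 in duodenum, 67.2 in jejunum, 79.1 in ileum, 46.7 in cecum, then 71.0 in colon, and 38.4 in rectum, *HOXB7* was 9.71 to 58.6 CPM, *HOXB4* was 13.6 to 33.5 CPM, and *HOXA5* was 7.77 to 38.2 CPM. *HOXA9*, which is known from endothelial cells, was at 0 in reticulum and omasum and 1.32 CPM in abomasum, 1.82 in duodenum, 3.20 in jejunum, then 20.0 in ileum, 34.9 in cecum, then 29.6 in colon, and 35.0 in rectum. It was the only one of 13 HOX genes tested that was called higher in the large intestine (log2 difference, 1.87), against 2.83% of all genes tested, and none was called lower, against 1.04%. It reached 5 CPM in both regions. *HOXA10* did not pass 1.18 CPM in any NB tract library, against 104 CPM in the stroma of the same colon library, and *HOXA11* was seen in rectum alone, at 0.571 CPM.

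Endothelium of the omasum had the highest levels of several HOXD genes. *HOXD4* was 26.5 CPM (95% interval, 17.7 to 38.0) in reticulum, 71.8 CPM (95% interval, 50.6 to 99.0) in omasum, and 13.8 to 32.9 CPM from abomasum to rectum. *HOXD1* was 24.7 CPM (95% interval, 16.3 to 35.9) in reticulum and 60.2 CPM (95% interval, 40.9 to 85.4) in omasum, and did not pass 3.63 CPM from abomasum on. *HOXD8* was 6.39 and 25.2 CPM, against at most 4.601 CPM later. *HOXD1*, *HOXD4*, and *HOXD8* were called higher in omasum than reticulum, 3 of 12 tested, against 2.86% of all genes, and all 3 reached 5 CPM in both. The same 3 were called lower in abomasum than omasum, where *HOXA5*, *HOXB4*, and *HOXB7* were called higher, in all 6 of 12 against 10.9%. Of these 6, *HOXD1* and *HOXD8* had passed the filter through omasum alone, where they had to be high. Omasum gave 103 and reticulum 225 *PECAM1* barcodes. Leukocyte markers in *PECAM1* barcodes summed to 168 to 2845 CPM over the NB tract libraries, and their part in these values was not tested.

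Leukocytes held few HOX transcripts. *HOXB4*, which is known from blood stem cells, was 1.93 to 5.70 CPM and *HOXB3* was 0 to 1.94 CPM in *PTPRC* barcodes of the NB tract libraries from abomasum to rectum. *HOXB4* was 4.03 CPM in AD duodenum, 6.09 in AD jejunum, then 5.00 in AD cecum, and 3.61 in AD colon, with 5322, 4300, 5610, and 5849 barcodes. *HOXB7* was 6.04 CPM (95% interval, 4.59 to 7.81) in ileum and 0.675 to 3.42 CPM in the other NB tract libraries. In the large intestine, *HOXA9* was 3.72 CPM in cecum, 4.04 in colon, and 4.24 in rectum and *HOXB9* 3.79 CPM in cecum, 1.44 in colon, and 4.15 in rectum, where the epithelial markers in these leukocyte barcodes summed to 33.2, 35.5, and 58.3 CPM against 5901, 4761, and 6325 CPM in epithelium. The stromal markers summed to 107, 12.4, and 122 CPM in these leukocyte barcodes, and the part of free RNA was not tested. In *PTPRC* barcodes, 1 HOX gene reached 5 CPM in abomasum (*HOXB4*) and 1 in ileum (*HOXB7*), and none in the other NB tract libraries with at least 50 such barcodes. Nearly every HOX gene tested between another class and leukocytes had therefore passed the filter through the other class, so that the counts of calls are set by the filter and nothing is read from them. In *COL1A2* barcodes, for instance, they were 8 of 8 in duodenum, against 30.7% of all genes tested, and 13 of 13 in jejunum, against 29.1%. In abomasum, *HOXB4* was called lower in epithelium, at 0.191 CPM, than in leukocytes, at 5.70 CPM, the 1 HOX gene tested between them, against 50.7% of all genes tested. In ileum, *HOXB7* was called higher in epithelium (92.6 CPM), stroma (32.4 CPM), and endothelium (58.6 CPM) than in leukocytes, where 16.3%, 29.8%, and 25.7% of all genes tested were called higher.

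The epithelium of the AD animal was set against that of all NB tract libraries. Over the 39 genes, log2(CPM + 1) of AD jejunum epithelium correlated best with NB jejunum of the 9 NB tract libraries (Pearson's r across genes, 0.95), AD cecum with NB ileum (0.95) and NB cecum (0.95), which hardly differed, and AD colon with NB colon (0.87) before NB rectum (0.81). Genes are not independent replicates, and all profiles share genes at 0. In stroma, AD colon was most like NB rectum (0.91), before NB colon (0.86) and NB cecum (0.85). HOXC genes were at or near 0 in colonic epithelium of both stages: all 9 HOXC genes were at 0 in AD colon, where a count of 0 allowed up to 1.54 CPM, while *HOXC6* was 105 CPM (95% interval, 95.4 to 116) in AD cecum. AD duodenum gave 24 *EPCAM* or *KRT14* barcodes and entered no comparison.

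Of the jejunum, 5 of 7 HOX genes tested were called higher in AD epithelium, against 22.7% of all genes tested, and none lower, against 7.91%. Of the 4 that reached 5 CPM in both libraries, 2 were called higher (*HOXC6* and *HOXC8*). The others had passed the filter through AD alone. *HOXA3* was 35.4 CPM (95% interval, 28.1 to 44.0) in AD and 4.30 CPM (95% interval, 3.16 to 5.71) in NB, *HOXC6* was 56.4 and 19.7 CPM, *HOXC8* was 34.6 and 14.6 CPM, *HOXA4* was 16.2 and 3.29 CPM, and *HOXC4* was 10.9 and 1.83 CPM. Of the cecum, 3 of 21 were called higher in AD (*HOXB4*, *HOXB6*, and *HOXD4*), against 12.8%, and 2 lower, against 6.62%. Of the 18 that reached 5 CPM in both libraries, 2 were called higher (*HOXB4* and *HOXD4*) and 2 lower (*HOXC8* and *HOXC9*). *HOXC8* was lower, with 12.2 CPM (95% interval, 9.05 to 16.1) in AD and 50.0 CPM (95% interval, 42.8 to 58.0) in NB, and so was *HOXC9*, with 11.7 and 51.4 CPM, whereas their neighbor *HOXC6* was 105 and 79.6 CPM and was not called.

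Of the colon, 5 of 21 were called higher in AD epithelium, against 23.3%, and 4 lower, against 5.74%. Of the 11 that reached 5 CPM in both libraries, 1 was called higher (*HOXA5*) and none lower. The other 8 had passed the filter in the stage where they were high. *HOXB7* was 45.6 CPM (95% interval, 36.6 to 56.1) in AD and 1.77 CPM (95% interval, 1.01 to 2.87) in NB, and *HOXB3*, *HOXB5*, *HOXB6*, and *HOXA5* were also higher. *HOXA5* was 160.3 and 58.9 CPM. The 4 that were lower were *HOXB8*, *HOXD9*, *HOXD10*, and *HOXD11*, with *HOXD10* at 1.02 CPM in AD and 7.52 CPM in NB. With a mitochondrial limit of 10%, none was called lower, and with a pseudocount of 5 CPM 2 were. *HOXA9* was 310.4 and 225 CPM and *HOXB9* 277 and 179 CPM, and neither was called. Leukocyte markers in the *EPCAM* or *KRT14* barcodes summed to 1154, 244, and 304 CPM in AD jejunum, cecum, and colon, against 142, 275, and 94.1 CPM in NB. The class also differed in makeup. Barcodes with *MKI67*, a gene of dividing cells, numbered 12 of 202 in AD and 198 of 825 in NB jejunum. They numbered 18 of 297 and 33 of 242 in cecum, and 16 of 164 and 96 of 669 in colon. The part of leukocyte RNA and of makeup in the differences between stages was not tested.

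**Figure D5:**
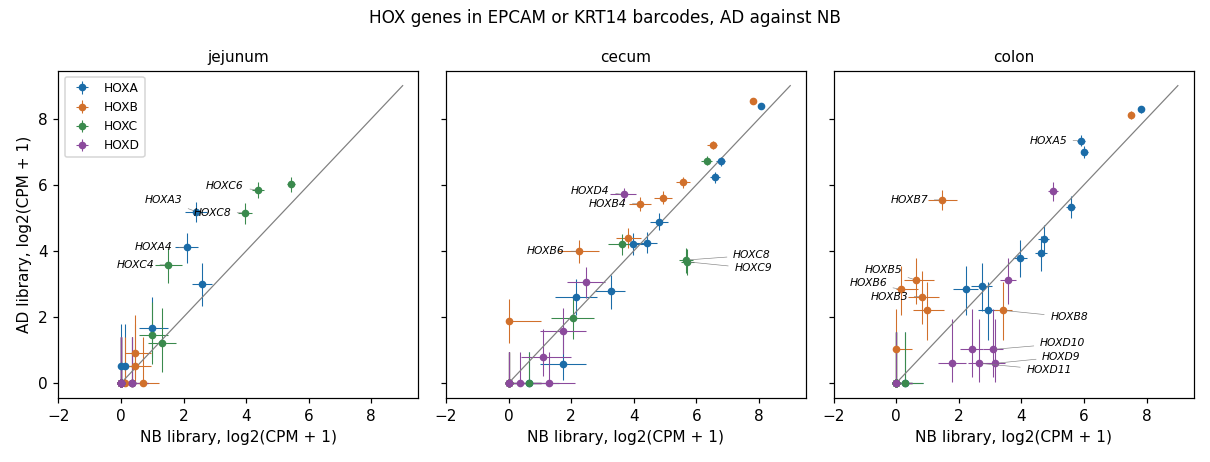
Level of the 39 HOX genes in EPCAM or KRT14 barcodes of the AD (vertical) against the NB library (horizontal) of jejunum, cecum, and colon, on the scale of log2(CPM + 1), colored by cluster, with exact 95% Poisson intervals as bars and equal levels as a line. Names mark the 5, 5, and 9 genes called in jejunum, cecum, and colon.

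In stroma, stages could be set side by side in colon alone. There, 2 of 22 HOX genes tested were called higher in AD, against 8.95%, and 4 lower, against 5.99%. Of the 11 that reached 5 CPM in both libraries, 1 was called higher (*HOXA5*) and 1 lower (*HOXC6*). The other 4 had passed the filter in the stage where they were high. *HOXA13* was 15.0 CPM (95% interval, 8.92 to 23.8) in AD and 2.90 CPM (95% interval, 0.790 to 7.43) in NB, and *HOXA5* was 115 and 45.7 CPM. The class differed in makeup: *COL1A2* barcodes with the fibroblast gene *PDGFRA* and no *MYH11*, a smooth muscle gene, numbered 74 of 161 in AD and 30 of 202 in NB, and those with *MYH11* and no *PDGFRA* numbered 25 and 47. Among those with *PDGFRA*, *HOXA13* was 12.4 CPM (95% interval, 5.35 to 24.4) in AD and 10.2 CPM (95% interval, 1.24 to 37.0) in NB. *HOXA5* was 104 CPM (95% interval, 80.4 to 132) in AD and 51.2 CPM (95% interval, 24.6 to 94.2) in NB. The intervals of the stages overlapped for both genes. The NB side held 30 barcodes, fewer than a class needed to enter a comparison, so that nothing is read from this overlap. The part of makeup in the HOX genes called between stages was not tested. The 4 that were lower were *HOXB2* at 4.18 and 35.5 CPM, *HOXC6* at 9.20 and 42.1 CPM, *HOXC9* at 4.18 and 36.3 CPM, and *HOXC8* at 0.836 and 10.2 CPM. In *PTPRC* barcodes, 1 HOX gene (*HOXB4*, in jejunum) was tested in the 4 tissues with both stages and was not called, with 6.09 CPM in AD and 3.84 CPM in NB, against 13.7% of all genes tested called higher and 8.14% lower. Since AD epithelium and stroma were 1 library each of 1 animal, these differences belong to these libraries.

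Known partners and regulators of HOX genes were read from 3 lists. Of 9 TALE factors, the DNA-binding partners of HOX proteins, none of 5 tested was called between NB large and small intestine in stroma, where 2.71% of all genes tested were called higher and 4.28% lower (median log2 difference, 0.09, against -0.10 over all genes tested). Of 4 tested in epithelium, *MEIS1* was called lower in the large intestine, with means of 0.895 and 5.82 CPM, against 4.79% of all genes tested (median of the list, -0.97, against -0.04). *MEIS1* had passed the filter through the small intestine alone, where it had to be high, so that this call is a description. In stroma, *MEIS1* was 40.0 and 51.2 CPM without being called. In AD epithelium, *MEIS1* was called higher in jejunum, cecum, and colon, of 3, 3, and 5 TALE factors tested, with 3, 1, and 4 called higher in all, against 22.7%, 12.8%, and 23.3% of all genes tested (medians, 2.29, 0.52, and 1.62, against 0.41, 0.25, and 0.44 over all genes tested). In cecum, *MEIS1* was 29.3 CPM in AD and 0.287 CPM in NB cecum.

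Of 28 upstream regulators, 1 was called higher and 4 lower in the stroma of the large intestine, of 22 tested, against 2.71% and 4.28% of all genes tested (median, -0.28). The 4 were the retinaldehyde dehydrogenases *ALDH1A1* and *ALDH1A3*, the retinoic acid hydroxylase *CYP26B1*, and *GMNN*, and the 1 that was higher was *CYP26A1*, also a retinoic acid hydroxylase. *ALDH1A3* was 6.46 CPM in the large and 60.1 CPM in the small intestine. In epithelium, 2 were called higher and 1 lower, of 21 tested, against 5.62% and 4.79% (median, -0.08). *CDX1* was 189 and 82.3 CPM, the retinoic acid receptor *RARG* 12.8 and 3.32 CPM, and *GMNN*, which restrains DNA replication, 17.9 and 42.4 CPM. In endothelium, 1 was called higher (*ALDH1A2*) and 2 lower (*RARG* and *CYP26B1*), of 20 tested, against 2.83% and 1.04% (median, -0.12, against -0.01). *CYP26B1* was 18.6 and 226 CPM.

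Of 28 regional transcription factors, a list of genes known to differ along the gut, 27 were listed in the files. In stroma, 9 were tested (median, 0.04). *PITX1*, known from the hindlimb, was called higher in the large intestine at 159 against 6.83 CPM, against 2.71% of all genes tested, and *TBX3* was called lower, against 4.28%. In epithelium, 10 were tested (median, -1.65), of which 1 was called higher in the large intestine, against 5.62% of all genes tested. *GATA5*, at 2.19 against 49.5 CPM, and *TBX3* were called lower, against 4.79% of all genes tested. In endothelium, 1 of 3 was called lower (*TBX3*; median, -0.36), against 1.04%.

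The other named members followed their neighbors in part. *HOXA4* was 4.55 to 21.3 CPM in NB tract stroma and 8.28 to 14.7 CPM in epithelium from ileum to rectum. *HOXA7* did not pass 13.0 CPM in stroma and was 2.46 to 8.62 CPM in that epithelium.

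*HOXB3* of epithelium was 35.6 CPM in ileum, 29.6 in cecum, then 0.774 in colon, and 2.46 in rectum, *HOXB4* was 25.9 CPM in ileum, 17.5 in cecum, then 0.995 in colon, and 3.62 in rectum, and *HOXB8* was 26.6 CPM in ileum, 46.3 in cecum, then 9.73 in colon, and 38.9 in rectum. These 3 genes had their lowest value of the last 4 libraries in colon, as *HOXB7* had. *HOXB5* was highest in stroma of jejunum at 13.0 CPM and of abomasum at 12.8 CPM, and in epithelium of cecum at 13.2 CPM in NB and 20.0 CPM in AD. *HOXB6* did not pass 4.18 CPM in NB epithelium and was 14.9 CPM in AD cecum.

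*HOXD4* of epithelium was 33.5 CPM in ileum, 11.8 in cecum, then 31.4 in colon, and 14.5 in rectum, so that cecum was low between ileum and colon, whereas it was 22.8 CPM in ileum, 15.2 in cecum, then 18.9 in colon, and 6.17 in rectum in stroma. *HOXD3* was 3.04 CPM in ileum and 12.5 CPM in rectum in epithelium, and 2.02 and 8.19 CPM in stroma of ileum and cecum. *HOXD9* of epithelium was 1.44 CPM in cecum, 7.96 CPM in colon, and 5.56 CPM in rectum, and 0.512 CPM in AD colon.

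Of the 39 members, 30 reached at least 20 UMIs and 5 CPM in a stromal, endothelial, or epithelial class of a tract library and met the rule for named genes. The highest level in any class of a tract library was 377 CPM, of *HOXB9* in rectal epithelium. *HOXD8* passed 5 CPM in endothelium with 13 UMIs in omasum. *HOXA2* was 21.6 CPM in omasum, 15.6 in abomasum, then 14.9 in duodenum, and 10.2 in jejunum in stroma and did not pass 5.19 CPM in that of the other NB tract libraries. *HOXD3* reached 14.6 CPM and *HOXD9* 17.4 CPM, both in endothelium of reticulum. Levels are not divided by transcript length and come from the 3′ end, so that values of different genes are not measures of which gene is more active. In the RefSeq table of the later ARS-UCD2.0 build, 14 members lay in 9 pairs whose spans overlapped, among them *HOXA5* with *HOXA6* and with *HOXA3*, *HOXB8* with *HOXB9*, and *HOXD10* with *HOXD11*, so that the share of reads between the members of a pair is uncertain.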

How the data were processed

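Single-cell RNA sequencing counts of 15 libraries (11 NB and 4 AD) were used. The authors demultiplexed the reads and counted UMIs per gene and barcode with Cell Ranger 3.1.0 on ARS-UCD1.2. The deposited values are whole-number UMI counts without normalization, and the annotation release and the use of strand in counting are not given in the sources used here.

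As in the study's methods, a barcode was kept if it had 500 to 4000 genes, fewer than 50000 UMIs, and less than 40% of its UMIs from mitochondrial genes. Doublets were scored with the Scrublet method in scanpy 1.11.5 (simulation ratio 2, 30 components), and the top 58 to 1343 scores per library were dropped, a share that grew with its number of barcodes. UMIs were summed per library and class and scaled to CPM. Pairs of sums were compared on log2(CPM + 1) and regions by the ratio of mean CPM, for genes with at least 5 CPM in at least 1 library compared. The shares of all genes printed here belong to this filter, and none is given for genes that reached 5 CPM on both sides. Intervals are exact 95% Poisson for CPM and exact Clopper-Pearson for shares, and a count of 0 was read as up to 3 counts. No test between groups was made, because each tissue and stage had 1 library and the tissues of a region were not taken as replicates of a condition.

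The members, gene lists, and comparisons were chosen with earlier results of these data known. Values were written out for HOX genes with at least 20 UMIs and at least 5 CPM in a stromal, endothelial, or epithelial class of a tract library, and for genes of the other lists that were called. Some of the other members were given by count or level, chosen after their values were seen. The AD comparison in epithelium, neighboring libraries, epithelium against stroma, the correlations, and the subsets were added after the data had been seen. Alternatives were: doublets kept, no upper limit on genes, a mitochondrial limit of 10%, other class definitions, other pseudocounts and filters, a call at 4-fold, CPM over genes under 1% of UMIs, and each library left out. Results for a few genes are not reported here. Gene spans were read from the RefSeq table of ARS-UCD2.0, to find overlapping members, and no coordinate of the files' build was used. Versions were matplotlib 3.10.9, pandas 2.3.3, scikit-learn 1.9.0, SciPy 1.17.1, NumPy 2.4.6, and Python 3.11.15.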

Additional observations from a re-analysis of the deposited data

Results flagged for a closer look

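HOX transcripts were seen in libraries outside the tract comparison. Over all kept barcodes, the 39 genes summed to 13.2 CPM in NB liver (95% interval, 12.4 to 14.1) and 5.61 CPM in NB salivary gland (95% interval, 4.51 to 6.91). Both sums lay above the limit that a count of 0 allows (0.0448 and 0.189 CPM) and below every NB tract library. Such sums also depend on the classes that a library held. In *COL1A2* barcodes, the sum was 363 CPM (95% interval, 215 to 574) in liver, with 12 barcodes and thus no comparison. It was 22.7 CPM (95% interval, 12.1 to 38.8) in the 81 *COL1A2* barcodes of salivary gland, against 285 to 646 CPM in NB tract stroma. In liver, 68 barcodes with a UMI of *STOML3*, a gene after which the study named a cell type of NB liver, had far higher levels: *HOXA9* was 262 CPM (95% interval, 219.7 to 309), *HOXA6* 95.5 CPM (95% interval, 70.9 to 126), and *HOXA5* 70.7 CPM (95% interval, 49.8 to 97.4), where a count of 0 allowed up to 5.73 CPM, and no UMI of a HOXC or HOXD gene was counted. Of the marker lists, the leukocyte one summed to 2874 CPM in these barcodes with none of its 5 genes at 0, the epithelial one to 22.9 CPM with 6 of 7 at 0, and all 6 stromal markers were at 0. *CD74* was 1453 CPM. Of the myeloid list, *C1QA* was 1484 CPM, *CSF1R* 89.8 CPM, and *CD14* 63.0 CPM. The mast cell list was split, with *KIT* at 124 CPM and *CPA3* at 0. So was the B cell list, with *CD79A* at 84.0 CPM and *MS4A1* at 0. The part of free RNA in these marker values was not tested. The endothelial list summed to 374 CPM with none of its 5 genes at 0, with *EGFL7* at 223, *PECAM1* at 109, *CDH5* at 30.6, *KDR* at 7.64, and *VWF* at 3.82 CPM, and all 3 lymphatic endothelial markers were at 0. In the *PTPRC* barcodes of the liver, *HOXA9* was 1.69 CPM. *HOXA9* is among the marker genes that the study named for its *STOML3* cell type. By hierarchical clustering, the study placed that cell type nearest to lymphatic endothelial cells, hepatocytes, and cholangiocytes. In *STOML3* barcodes of other libraries, *HOXA9* was 21.7 CPM in cecum and 25.7 CPM in rectum, and the 61 of reticulum had no UMI of it.

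One difference between stages pointed in opposite directions in a pair of tissues. *HOXC8* in *EPCAM* or *KRT14* barcodes was higher in AD than NB jejunum (log2 difference, 1.19) and lower in AD than NB cecum (log2 difference, -1.95). With 1 library per tissue and stage, the difference between tissues was not tested.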

How the results depend on the processing

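Of 243 values of 20 counts under the alternatives, 204 were within 1.5 times of the reported count, and the 39 others are given here, with the cause not tested. Numbers tested and shares of all genes are not given for the alternatives, so that these counts describe dependence on the processing alone. Between NB large and small intestine in *COL1A2* barcodes, 9 to 12 HOX genes were called higher and 3 to 8 lower when libraries were left out one at a time (8 without duodenum, 7 without ileum). In epithelium, these ranges were 7 to 18 higher (18 without ileum) and 0 to 5 lower (0 without ileum, 5 without cecum), and a class open to barcodes with other markers gave 11 and 0. In *PECAM1* barcodes, they were 1 to 3 higher (3 without colon or ileum) and 0 to 1 lower (1 without ileum). In place of 1 higher, 2 were called without an upper limit on genes, with the inclusive class, with the strict class of at least 5 marker UMIs, and without the filter on low values, and the inclusive class gave 2 lower. For intestine against stomach chambers, 0 to 3 were higher (3 without duodenum or abomasum, 0 without colon) and 0 to 2 lower (2 without jejunum or omasum, 1 without reticulum or abomasum), the exclusive class gave 2 higher and 1 lower, the strict class 0 higher, and doublets kept or CPM over genes under 1% of UMIs 1 lower. In AD against NB colon stroma, 1 was higher with a mitochondrial limit of 10% and at 4-fold. In AD against NB epithelium, the counts at 4-fold were 3 higher in jejunum, 1 higher and 1 lower in cecum, and 3 higher in colon. The inclusive class gave 1 lower in jejunum, 5 higher in cecum, and 2 higher in colon, and in colon the mitochondrial limit of 10% gave 0 lower and a pseudocount of 5 CPM 2 lower. Without the filter on low values, *PECAM1* barcodes exceeded *PTPRC* barcodes in 108 pairs of HOX gene and NB tract library, in place of the 62 left by the filter. In *COL1A2* barcodes, 2 to 3 large intestine libraries lay above every other NB tract library in the posterior share when libraries were left out.

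No analysis paired by replicate was made because each group held 1 library, so that the groups compared share fewer than 2 replicate numbers. A fit pairing the stages by tissue, over the 4 tissues with both stages, was not run. Depth limits small classes, so that low levels, for instance in *COL1A2* barcodes of reticulum and omasum, were not detectable rather than absent.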

Other observations

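*COL1A2* barcodes were divided into those with *PDGFRA*, a fibroblast gene, and no *MYH11*, and those with *MYH11*, a smooth muscle gene, and no *PDGFRA*. In cecum, the 519 former had *HOXA9* at 102, *HOXA11* at 38.98, and *HOXC6* at 40.4 CPM, and the 104 latter had 104, 58.8, and 46.5 CPM. *HOXA10* was 46.9 CPM in the former and 107 CPM in the latter. In jejunum, *HOXB2* was 100.4 and 109 CPM and *HOXC6* 54.3 and 29.9 CPM. In rectum, *HOXB2* was 24.8 and 7.62 CPM and *HOXA9* 65.2 and 113 CPM.

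*EPCAM* or *KRT14* barcodes with a UMI of *MKI67*, a gene of dividing cells, summed to 728 CPM of HOX genes in colon and those without to 737 CPM. In ileum, *HOXA9* was 194 CPM with and 162 CPM without *MKI67*, *HOXA10* 22.2 and 9.31 CPM, and *HOXB7* 119.6 and 79.6 CPM. Among endothelial barcodes, those with *PROX1*, a gene of lymphatic endothelium, were set against the rest. In jejunum, 87 of them had *HOXA9* at 28.3, *HOXA5* at 51.5, *HOXC6* at 12.9, *HOXC9* at 11.6, and *HOXB2* at 23.2 CPM, against 1.62, 19.6, 0.649, 0.730, and 69.9 CPM in those without. In cecum, *HOXA9* was 80.9 and 24.8 CPM and *HOXB2* 2.70 and 56.4 CPM. In ileum, *HOXB7* of leukocytes was 7.30 CPM in the 844 *PTPRC* barcodes with the B cell gene *MS4A1*. It was 2.01 CPM, the level of 3 UMIs, in the 110 with the macrophage gene *CSF1R*. In *MS4A1* barcodes of other libraries it was lower, at 2.89 CPM in NB colon, 2.65 in AD duodenum, and 2.42 in AD cecum. These subsets were chosen after the data had been seen.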
